A study of Mus musculus with 9 samples.

Results

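The 10 carboxylesterase genes Ces1b, Ces1c, Ces1d, Ces1e, Ces1f, Ces1g, Ces2a, Ces2c, Ces2e and Ces3a were followed in liver RNA of C57BL/6 mice. They are the rows of the deposited count table whose Ensembl gene IDs carry these symbols, 10 of 45513 IDs in all, and all 10 were among the 12102 genes with enough counts to be tested. The 9 libraries, from mice fed and treated for 9 weeks, formed 3 groups of 3: high fat diet with B-LGND2, high fat diet with vehicle, and normal diet with vehicle. B-LGND2 is known here only by its code name, and the series title presents it as a ligand of estrogen receptor beta. The sources used here do not give age, sex, dose, route or the make-up of the diets. They state 3 per group, name no batch and do not say outright that each library is a separate animal, so the p-values below rest on the spread among these libraries, which may be partly technical.

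Carboxylesterases are serine hydrolases that cleave ester bonds in drugs, pesticides and lipids. In the hepatocyte most of them sit in the lumen of the endoplasmic reticulum, where a tail at the end of the protein holds them back, and they are known both as phase I drug enzymes and as lipases of the stored and secreted triglyceride pool. In mice the family has expanded by tandem duplication into many more genes than in humans. Ces1d, also known as triacylglycerol hydrolase, feeds lipid into very low density lipoprotein particles; Ces1g is the mouse enzyme most often set beside human CES1 in lipid and drug metabolism; Ces1c is the esterase of mouse plasma; Ces1e, or egasyn, holds beta-glucuronidase in the endoplasmic reticulum.

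The genes lie in 2 tandem arrays on chromosome 8 (GRCm38). The 6 Ces1 genes run on the minus strand from Ces1b to Ces1g (chr8:93056728-93337308), a stretch of 280.6 kb, and Ces2a, Ces2c, Ces2e and Ces3a run on the plus strand over 324.4 kb (chr8:104734003-105058413). The transcripts used here were 1828 (Ces1c) to 2699 (Ces2e) bases long with a GC content of 47.3% (Ces1g) to 50.8% (Ces2a). Their coding sequences show how close these genes are to each other: identity was 72.2% to 90.9% within Ces1 (15 pairs, highest for Ces1b and Ces1c), 82.6% to 83.8% within Ces2 (3 pairs) and 52.5% to 55.2% between subfamilies (27 pairs). The 57 coding bases around the codon of the catalytic serine are printed to show what the members share and where they part, with the 5 codons centred on that serine in capitals (GENCODE M21 transcripts, sense strand; Ces1d at chr8:93187743-93187799, Ces2a at chr8:104737389-104737445).
Ces1b: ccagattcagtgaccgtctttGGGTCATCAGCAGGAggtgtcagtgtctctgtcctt
Ces1c: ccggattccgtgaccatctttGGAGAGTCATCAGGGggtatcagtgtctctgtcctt
Ces1d: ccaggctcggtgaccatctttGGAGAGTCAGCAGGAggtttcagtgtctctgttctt
Ces1e: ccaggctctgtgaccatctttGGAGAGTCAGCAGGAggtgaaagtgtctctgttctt
Ces1f: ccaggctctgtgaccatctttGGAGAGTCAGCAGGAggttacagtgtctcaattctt
Ces1g: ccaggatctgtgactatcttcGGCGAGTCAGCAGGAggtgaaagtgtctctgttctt
Ces2a: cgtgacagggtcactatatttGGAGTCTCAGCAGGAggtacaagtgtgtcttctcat
Ces2c: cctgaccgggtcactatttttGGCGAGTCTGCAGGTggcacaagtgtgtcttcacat
Ces2e: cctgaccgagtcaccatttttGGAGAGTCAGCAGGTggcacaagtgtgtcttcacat
Ces3a: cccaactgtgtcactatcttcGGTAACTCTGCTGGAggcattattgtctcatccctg
In the 15 capital bases Ces1e and Ces1f did not differ from Ces1d, Ces1g and Ces2e differed at 1 base, Ces1c and Ces2a at 2, Ces2c at 3, Ces1b at 4 and Ces3a at 5. Over all 57 bases the number of differences from Ces1d was 4 in Ces1e and Ces1f, 8 in Ces1g and 22 in Ces3a.

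The last coding bases bear on where the enzyme stays. They are printed with the last 4 codons before the stop codon in capitals. In members that carry it, these encode the tail by which lumenal esterases are retrieved to the endoplasmic reticulum.
Ces1c: cctactgaacacACAGAACACAAAtga
Ces1d: tcccacagggaaCATGTTGAGCTCtga
Ces1f: ccccagccatacCACAATGAGCTGtga
Ces1g: tcccatagggaaCATGTTGAACTGtga
Ces2a: tctcaggacaagCATGCAGAGCTGtag
Ces3a: agcaggaaagttCCAGAGGAGCTCtga
The codons of this retrieval tail were searched as histidine, any residue, glutamate and leucine, and no other form was searched. They were found in 7 of the 10 members, namely Ces1d, Ces1e, Ces1f, Ces1g, Ces2a, Ces2c and Ces2e, and not in Ces1b, Ces1c or Ces3a.

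This likeness limits how reads can be told apart. Of the windows of 100 bases in a member's transcript, 16.0% in Ces2c, 10.7% in Ces2a and 9.09% in Ces3a occurred unchanged in a transcript of another gene, against 1.29% in Ces1b, 1.39% in Ces1c and 0 windows in Ces1d, Ces1e, Ces1f, Ces1g and Ces2e. The partner of Ces3a was Ces3b, and those of Ces2c were Ces2d-ps and 2 other gene models. With windows of 50 bases the shares were 42.2% in Ces2c, 30.9% in Ces3a, 22.2% in Ces2a, 17.0% in Ces1c, 11.6% in Ces1b and 1.28% to 3.36% in the 5 genes named last. The sources used here do not give how reads with several matches were counted, so the split of reads is uncertain for Ces2c, Ces3a, Ces2a, Ces1c and Ces1b.

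Ces3a and Ces1c were the most abundant members. Levels were compared between genes as counts per 1000000 (CPM, on scaled library sizes) per kilobase of transcript. In livers of the high fat diet with B-LGND2, Ces3a stood at 642 ± 61.5 CPM per kb (SD, n = 3 here and for every mean below) and Ces1c at 366 ± 28.6, without overlap of their libraries. In high fat vehicle livers Ces3a stood at 571 ± 94.8 and Ces1c at 575 ± 16.5 CPM per kb, and in normal diet livers at 723 ± 97.0 and 583 ± 120, and in both vehicle groups the libraries of the 2 genes overlapped. Ces1d followed in all 3 groups, at 78.2 ± 25.7, 190 ± 29.8 and 147 ± 21.5 CPM per kb in the same order. Ces1f, Ces2a, Ces1e, Ces1g and Ces2e followed with 18.4 to 41.0 CPM per kb on high fat diet with B-LGND2, 33.0 to 96.1 on high fat diet with vehicle and 36.2 to 114 on normal diet. Within that block the order differed between groups: Ces2a, Ces1g and Ces2e overlapped with each other in high fat vehicle livers, whereas on normal diet Ces2a stood above Ces1g and Ces2e without overlap, and there Ces1d and Ces1f overlapped. The order depends on the length used. Per kilobase of all annotated exons of a gene, Ces1d (107, 143 and 124) and Ces1f (59.8, 62.4 and 78.4) did not overlap on normal diet. Ces1b and Ces2c were the lowest members in every group, and Ces2c, at 20 to 107 counts per library, never passed 7.57 CPM per kb.

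**Figure D1:**
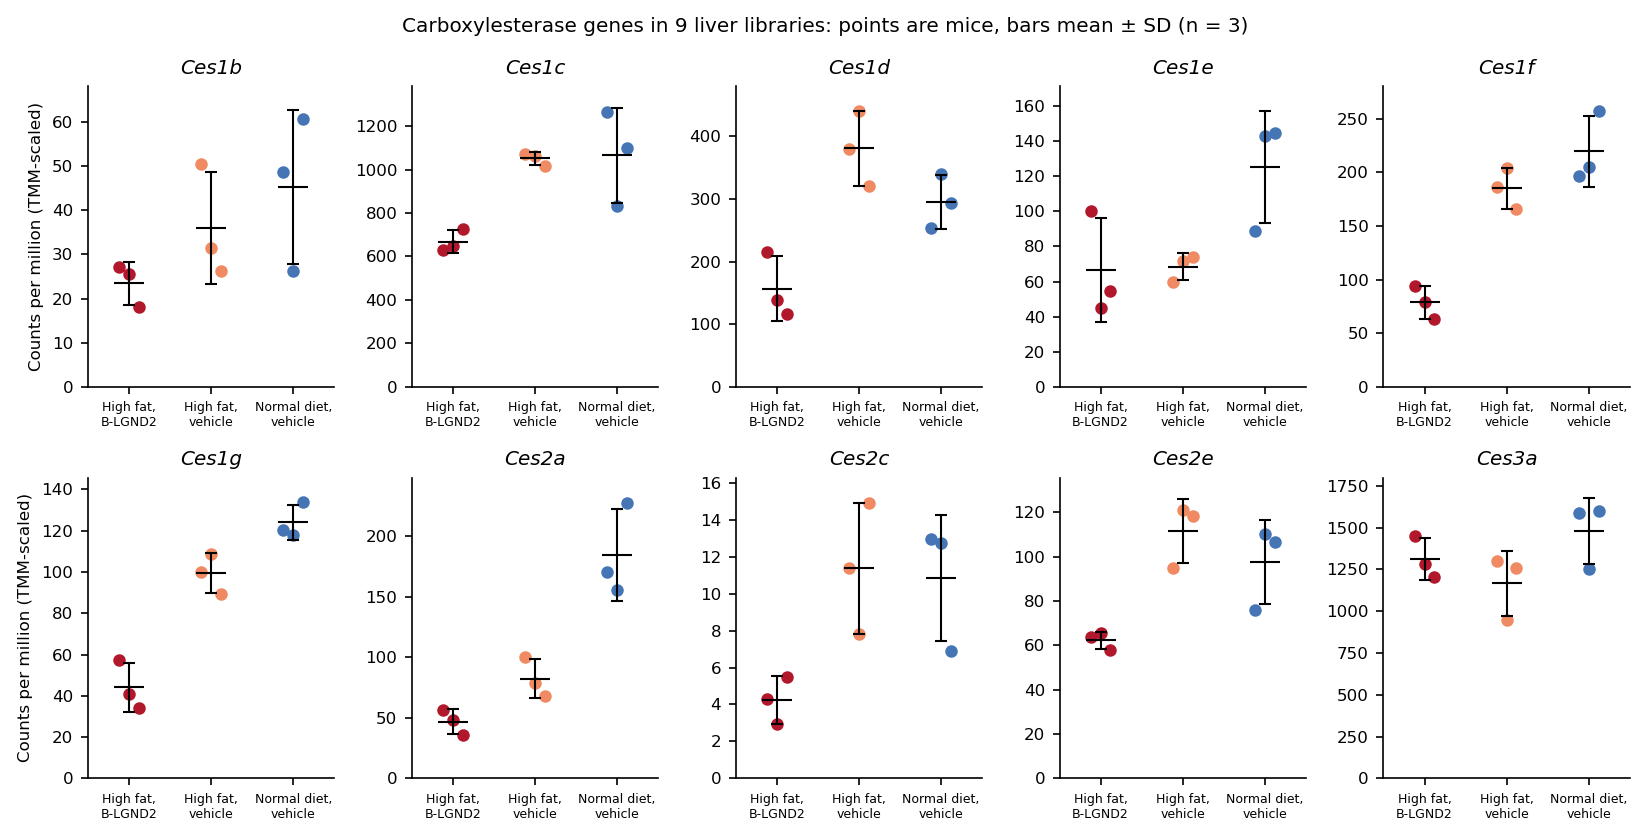
Level of each of the 10 carboxylesterase genes in CPM (y axis, linear from 0) for the 3 libraries of each group, with mean and SD; the groups are high fat diet with B-LGND2, high fat diet with vehicle and normal diet with vehicle from left to right. For 7 members (Ces1c, Ces1d, Ces1f, Ces1g, Ces2a, Ces2c and Ces2e) all B-LGND2 livers lie below all livers of both vehicle groups, while Ces3a overlaps between all groups. Of all genes tested, 17.2% lie lower without overlap against high fat vehicle and 10% against normal diet. The share lower against both at once was not computed.

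The first comparison asks what B-LGND2 changed in livers of mice on the high fat diet. Of the 10 members 5 fell with the ligand, 0 rose, and 9 had a log2 fold change below 0. The members were chosen with earlier results of these data known, so the all-gene values below do not test the family. Of the 4 other carboxylesterase genes tested, 0 were called and 2 had a log2 fold change below 0, with a median of -0.02. The median log2 fold change of the 10 was -0.82, against -0.0031 over all 12102 genes tested. By the quasi-likelihood test of edgeR, adjusted after Benjamini and Hochberg over all genes, 2.56% of all genes tested were lower and 3.07% higher. For 7 of the 10 members every B-LGND2 library lay below every vehicle library, as for 17.2% of all genes tested, and for 0 members it was the other way round, as for 16.4% of all genes.

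The triglyceride hydrolases of the Ces1 array gave the clearest change. Ces1d had 215, 139 and 116 CPM with B-LGND2, against 380, 440 and 321 CPM with vehicle on the high fat diet. The highest treated liver thus stayed under the lowest vehicle liver. Its log2 fold change was -1.28 (SE 0.25, adjusted p = 0.0105), a level 2.43-fold lower with the ligand. Ces1f, a close relative also described as a triacylglycerol hydrolase, had 94.1, 79.2 and 63.4 CPM with B-LGND2, against 186, 204 and 165 CPM with vehicle. Its log2 fold change was -1.23 (SE 0.22, adjusted p = 0.0068). Ces1g had 57.4, 40.8 and 34 CPM with B-LGND2, against 100.1, 109 and 89.5 CPM with vehicle, and its log2 fold change was -1.17 (SE 0.23, adjusted p = 0.0105). In all 3 genes B-LGND2 replicate 1, the deepest library, was the highest of the treated livers.

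The plasma esterase gene Ces1c also separated the groups, with 632, 646 and 729 CPM in B-LGND2 livers, against 1072, 1065 and 1017 CPM in high fat vehicle livers. Its log2 fold change of -0.65 (SE 0.21) did not pass (adjusted p = 0.0784). Ces1b, the closest relative of Ces1c and like it without the codons of the retrieval tail, had 27.1, 25.5 and 18.0 CPM with B-LGND2, against 50.5, 31.4 and 26.3 CPM with vehicle (log2 fold change -0.61, SE 0.31, adjusted p = 0.247). The Ces1b libraries of both groups overlapped. For Ces1e, egasyn, the log2 fold change was -0.04 with a 95% interval of -0.64 to 0.56. B-LGND2 replicate 1 stood at 100.1 CPM of Ces1e, replicates 2 and 3 at 45.2 and 54.5, and the vehicle livers lay between them at 59.7 to 73.9 CPM. Gusb, the beta-glucuronidase that egasyn holds, had a log2 fold change of 0.14 and did not pass (adjusted p = 0.753).

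In the second array Ces2c and Ces2e fell, and Ces2a and Ces3a did not pass. Ces2e, a Ces2 enzyme of liver and gut, had 63.6, 65.5 and 58.0 CPM with B-LGND2, against 95.2, 121 and 119 CPM with vehicle, a log2 fold change of -0.84 (SE 0.21, adjusted p = 0.0341). Ces2c, described as an acylglycerol hydrolase of mouse liver, had 37, 20 and 33 counts (4.29, 2.94 and 5.5 CPM) with B-LGND2, against 69, 52 and 107 counts (11.4, 7.82 and 14.9 CPM) with vehicle. The groups did not overlap, and the log2 fold change was -1.43 (SE 0.35, adjusted p = 0.0301). Ces2a had 56.2, 48.4 and 36.0 CPM with B-LGND2, against 99.9, 78.8 and 68.0 CPM with vehicle, again without overlap. Its log2 fold change of -0.81 (SE 0.24) missed the threshold (adjusted p = 0.0582). Ces3a, an abundant liver esterase, had 1452, 1281 and 1207 CPM with B-LGND2, against 1300, 945 and 1258 CPM with vehicle. Its log2 fold change was 0.17 with a 95% interval of -0.29 to 0.63 (adjusted p = 0.671) and turned to -0.0077 without scaling beyond library size.

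**Figure D2:**
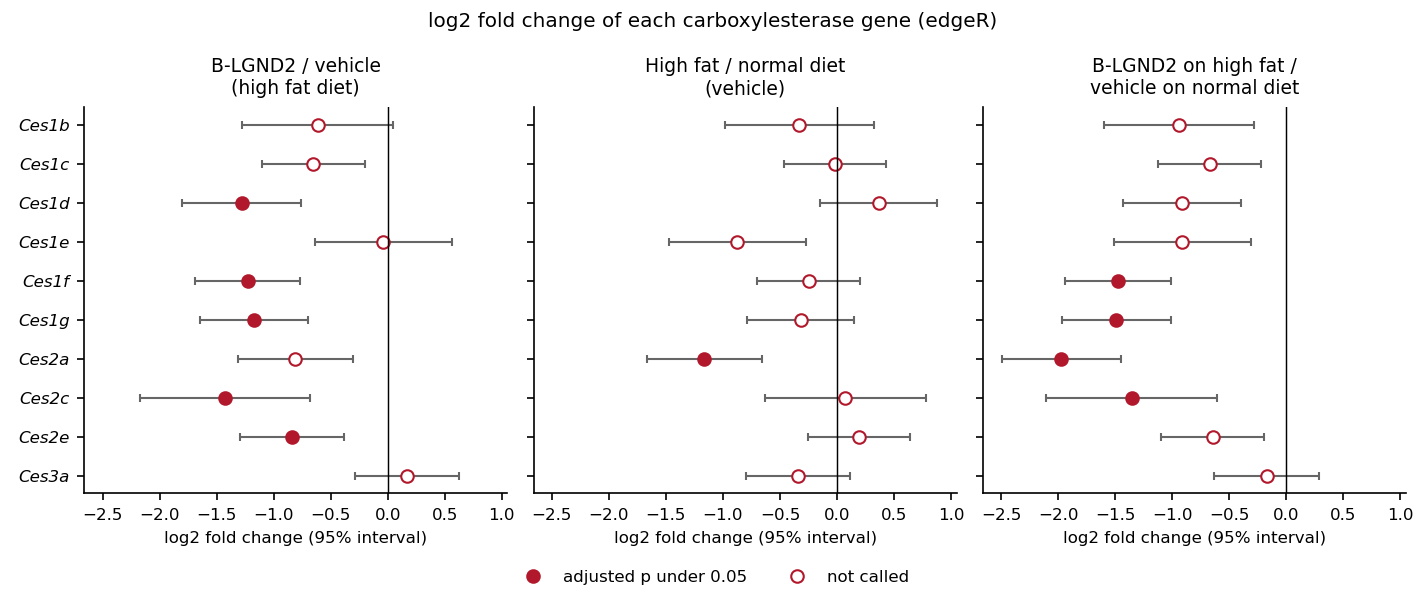
log2 fold change (x axis) of each carboxylesterase gene with its 95% interval in the 3 comparisons, from edgeR's quasi-likelihood model; filled points passed an adjusted p of 0.05. In the left panel 5 genes are filled, in the middle panel Ces2a is, and in the right panel 4 are, all of them below 0.

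The calls rested on few libraries. Leaving out high fat vehicle replicate 2 left Ces1f as the called member (adjusted p = 0.0622 for Ces1d and Ces1g). Leaving out B-LGND2 replicate 1 or 2, or replicate 1 or 3 of the high fat vehicle group, left 3, namely Ces1d, Ces1f and Ces1g, and the Ces2e call was also lost without B-LGND2 replicate 3 (adjusted p = 0.0824). The groups also differed in the share of counts on ribosomal RNA gene models, which was 4.31% to 6.19% with B-LGND2, 0.901% to 1.44% on high fat diet with vehicle and 3.16% to 3.74% on normal diet. With that share as a covariate in edgeR 0 members passed in any of the 3 comparisons (4, 1 and 6 had an unadjusted p under 0.05 for ligand, diet and both), and over all genes 2 passed here and 725 had an unadjusted p under 0.05. Ces1d then stood at -2.84 (adjusted p = 0.546). The share does not overlap between groups, so group and share cannot be told apart.

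The summed make-up of the 10 members differed along with single genes. Ces3b, which is not a member, is left out of these totals. It stood at 158 ± 17.3 CPM per kb with B-LGND2, 141 ± 37.5 on high fat diet with vehicle and 204 ± 70.3 on normal diet. The 10 members together took 0.226% to 0.241% of a library's counts with B-LGND2, 0.338% to 0.352% on high fat diet with vehicle and 0.330% to 0.370% on normal diet. The 6 Ces1 members summed to 1039 ± 77.6 CPM with B-LGND2, 1821 ± 117 CPM on high fat diet with vehicle and 1875 ± 185 CPM on normal diet, and the 3 Ces2 members to 113 ± 12.7, 205 ± 3.25 and 293 ± 42.2 CPM in the same order. Per length, Ces3a made up 50.3% to 52.5% of the 10-gene total in B-LGND2 livers, 29.7% to 38.7% in high fat vehicle livers and 38.2% to 40.1% in normal diet livers. Ces1d made up 4.96% to 7.92% with B-LGND2, 10.1% to 14.1% on high fat diet with vehicle and 6.52% to 10.6% on normal diet, and the share of Ces2a was 1.57% to 2.12%, 2.18% to 3.00% and 4.49% to 5.85%. These shares are taken within a library, so the scaling of libraries does not enter them, and they were not tested. A share also depends on the levels of the other members and on the transcript length used. The level of Ces3a itself did not pass for the ligand (log2 fold change 0.17, adjusted p = 0.671 by edgeR).

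**Figure D3:**
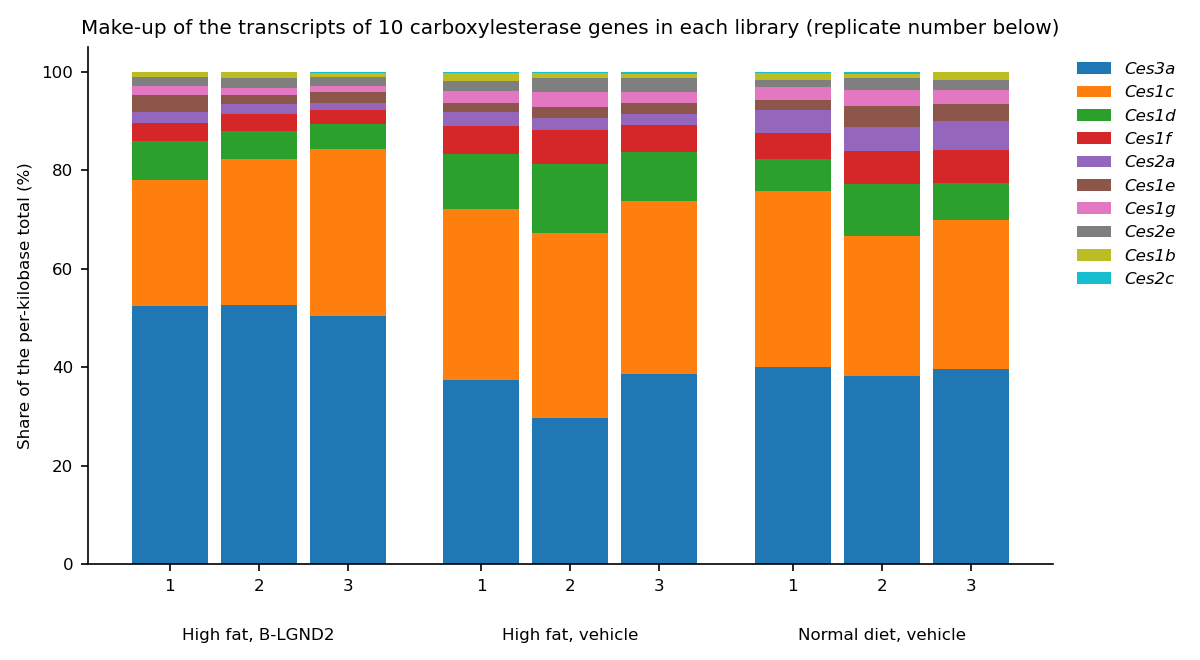
Share of each gene in the summed CPM per kb of the 10 carboxylesterase genes (y axis, percent) in each of the 9 libraries, with replicate numbers below the bars and the B-LGND2 group at the left. The blue Ces3a part exceeds 50% in the 3 B-LGND2 libraries and stays at or under 40.1% in the other 6.

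Between the groups given vehicle, the question is what high fat feeding alone did. Ces2a was the member that fell: it had 99.9, 78.8 and 68.0 CPM on high fat diet, against 171, 155 and 227 CPM on normal diet, a level 2.24-fold lower by edgeR, with a log2 fold change of -1.16 (SE 0.24, adjusted p = 0.0223). The other 9 members did not pass, while 1.49% of all genes tested were lower and 1.5% higher. The median log2 fold change of the 10 was -0.28, against 0.0054 over all genes tested. Libraries did not overlap for Ces2a, Ces1e and Ces1g, each with the high fat livers below the normal diet livers, where 14.8% of all genes tested were lower without overlap and 15.4% higher. Ces1e had 59.7, 71.9 and 73.9 CPM on high fat diet, against 88.7, 143 and 145 CPM on normal diet (log2 fold change -0.87, SE 0.28, adjusted p = 0.0902). Ces1d had 380, 440 and 321 CPM on high fat diet, against 253, 339 and 293 CPM on normal diet, with overlap and a log2 fold change of 0.37 (adjusted p = 0.389). Ces1g had 100.1, 109 and 89.5 CPM on high fat diet, against 121, 118 and 134 CPM on normal diet, a separation with a log2 fold change of -0.32 that did not pass (adjusted p = 0.414). Ces1f overlapped, with 186, 204 and 165 CPM on high fat diet against 197, 205 and 257 CPM on normal diet (-0.25, adjusted p = 0.522). The remaining members overlapped as well, with log2 fold changes of -0.33 for Ces1b, 0.07 for Ces2c, 0.19 for Ces2e and -0.34 for Ces3a. For Ces1c the log2 fold change was -0.02, with a 95% interval of -0.47 to 0.43, and it turned above 0 in 7 of 22 alternatives. The Ces2a call was lost without high fat vehicle replicate 1 (adjusted p = 0.0618), 2 (0.1) or 3 (0.116) and without normal diet replicate 3 (0.0631), and Ces1e passed beside Ces2a without normal diet replicate 1 (adjusted p = 0.0194), the library with 12.7% of its counts on mitochondrially encoded genes against 3.69% to 6.12% in the others.

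Set against normal diet with vehicle, livers of the high fat diet with B-LGND2 differ in both diet and ligand. All 10 fold changes were below 0 and 4 members fell, where 1.33% of all genes tested were lower and 1.59% higher, and the median log2 fold change was -0.93 against -0.0058 over all genes tested. Libraries of the groups did not overlap in 7 members, where 10% of all genes tested were lower without overlap and 10.5% higher. Ces2a had 56.2, 48.4 and 36.0 CPM with B-LGND2 on high fat diet, against 171, 155 and 227 CPM on normal diet, which is 3.93-fold lower by edgeR, a log2 fold change of -1.97 (SE 0.25, adjusted p = 5.8e-04). Ces1g, at 44.0 ± 12 against 124 ± 8.48 CPM, stood at -1.49 (SE 0.23, adjusted p = 0.0023), and Ces1f, at 78.9 ± 15.3 against 220 ± 33.0 CPM, at -1.48 (SE 0.22, adjusted p = 0.0018). Ces2c stood at -1.35 (SE 0.35) just inside the threshold (adjusted p = 0.0492), and 18 of 22 alternatives ended that call. Ces1d, at 157 ± 51.5 against 295 ± 43.1 CPM, had a log2 fold change of -0.91 and did not pass (adjusted p = 0.0544). The other 5 members stood at -0.94 (Ces1b), -0.67 (Ces1c), -0.91 (Ces1e), -0.65 (Ces2e) and -0.17 (Ces3a), with adjusted p of 0.0949 to 0.710. Ces2a, Ces1f and Ces1g passed in 21 of 22 alternatives each, all but the rRNA covariate, with adjusted p up to 0.0176. Without normal diet replicate 1, 6 members passed. This comparison shares its libraries with the other 2, so its values are no independent support for either.

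Along the chromosome the called members were not a single block. In the Ces1 array Ces1e, at -0.04 between Ces1d at -1.28 and Ces1f at -1.23 for the ligand, separated the called genes. In the second array the downstream genes Ces3a and its near copy Ces3b (0.16, adjusted p = 0.746) stood above 0 and did not pass. Among tested genes of other families within 300 kb of the arrays, 1 lies at the Ces1 array (Mmp2, 0.89, adjusted p = 0.313) and 18 at the other, of which Pdp2, encoding a phosphatase of the pyruvate dehydrogenase complex (-0.87, adjusted p = 0.0399), and D230025D16Rik (-0.85, adjusted p = 0.0497) fell.

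**Figure D4:**
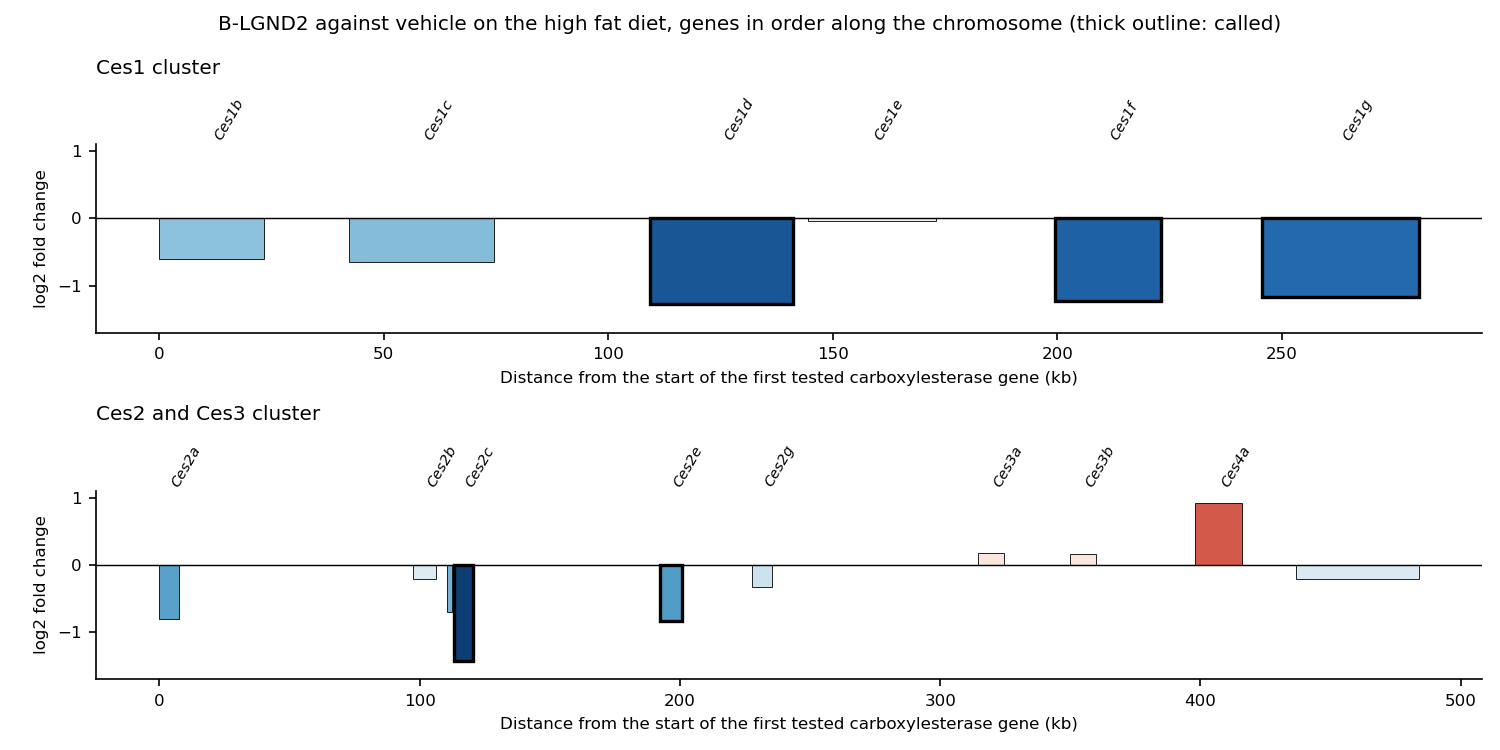
log2 fold change with B-LGND2 against vehicle under high fat feeding (y axis) for the tested genes of each array, drawn at their distance in kb from the first tested carboxylesterase gene (x axis), with bar width showing the gene's span. Thick outlines mark the called genes Ces1d, Ces1f and Ces1g above and Ces2c and Ces2e below; the uncalled Ces1e lies between Ces1d and Ces1f.

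Of 10 other carboxylesterase genes, 4 were tested and 0 passed in any comparison by edgeR, and only Ces4a for the ligand had an unadjusted p under 0.05. Ces3b ran at 344 to 425 CPM with B-LGND2, 236 to 399 CPM on high fat diet with vehicle and 349 to 677 CPM on normal diet. Ces2g, at 32.9 to 45.6, 41.2 to 52.5 and 34 to 45.4 CPM in the same order, stood at -0.33 for B-LGND2 against vehicle (adjusted p = 0.386), Ces4a at 0.91 (adjusted p = 0.182) and Ces2b, with 7 to 33 counts per library, at -0.21 (adjusted p = 0.863). Ces1a, Ces2d-ps and Ces2h had at most 2 counts in a library and Ces1h, Ces2f and Ces5a had 0 in all 9, which does not exclude a very low level.

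The profile of Ces1f over the 9 libraries was most like that of Ces1g. Likeness was measured as the root mean square difference between log2 CPM values, each centred on its mean over the 9 libraries, and came to 0.0888 for this pair, while the SD of the centred values was 0.716 for Ces1f and 0.727 for Ces1g. Among 12061 other genes the closest to Ces1f were Ctnnal1 (0.212), Aldh1a1, encoding a retinal dehydrogenase (0.223), and Cyp2j6 (0.243), and the same 3 were the closest to Ces1g. Ces2a lay closest to Cyp2a5, a cytochrome P450 (0.181), Aldh1a7 (0.236) and Cyp2c54 (0.268), and Ces1d to Epm2a, encoding laforin (0.224), Rnf125 (0.227) and Macrod1 (0.259). The closest to Ces1c were Slc17a2 (0.101), Dars (0.103) and Akr1e1 (0.108), to Ces2e Enpp3 (0.133), Klhl7 (0.167) and Pank1 (0.175), and to Ces3a Serpina1b (0.109), H1f0 (0.115) and Prss53 (0.127). Ces1e lay closest to Cenpv (0.177), Fbxo25 (0.212) and Trappc6a (0.222), and Ces1b to Lars (0.218), Tmem243 (0.225) and Sin3a (0.231). Ces2c, the member with the fewest counts, had no neighbour nearer than Car3 (0.327), Dbp (0.328) and Grik5 (0.328). The libraries of a group share diet and treatment, so these distances describe the 9 libraries only.

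The promoters of Ces1g, which fell with the ligand, and of Ces2a, which fell on the high fat diet, are printed. Among the member entries only these held a match of a motif searched below. Ces2c and Ces2e, which also fell with the ligand, have entries without a match. RefSeq entries (GRCm38.p6) were found for 7 of the 10 members and not matched for Ces1d, Ces1f and Ces3a. The 250 bases before the start are given on the gene's strand, with matches in capitals (Ces1g at chr8:93337210-93337459, minus strand; Ces2a at chr8:104733753-104734002, plus strand). The RefSeq start of Ces1g lies inside the GENCODE gene model, which begins further upstream at 93337308, so the stretch printed for Ces1g, with its match, lies partly within that model.
Ces1g: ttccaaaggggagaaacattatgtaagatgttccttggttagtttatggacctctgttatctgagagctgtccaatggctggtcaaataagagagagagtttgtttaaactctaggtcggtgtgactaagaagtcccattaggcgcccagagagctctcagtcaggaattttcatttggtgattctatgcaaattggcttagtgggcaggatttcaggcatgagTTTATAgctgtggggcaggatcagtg
Ces2a: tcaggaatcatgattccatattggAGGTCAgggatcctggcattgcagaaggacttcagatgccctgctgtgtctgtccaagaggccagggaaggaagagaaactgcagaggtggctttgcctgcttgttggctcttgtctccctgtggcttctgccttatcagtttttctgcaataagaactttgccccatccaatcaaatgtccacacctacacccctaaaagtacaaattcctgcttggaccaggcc
Matches of TATAAA and of the nuclear receptor core motif AGGTCA were searched on both strands. Ces1g had 1 match of TATAAA, on the opposite strand and beginning 26 bases before the RefSeq start, and Ces2a had 1 match of AGGTCA beginning 226 bases before it. No other of the 8 member entries held either motif, while 12.4% of all 32851 promoter entries held TATAAA and 14% held AGGTCA. Its direct repeats of the DR1 and DR4 kind were in 0 member entries and in 0.0335% and 0.0152% of all. The upstream sequence of Ces1b and Ces1c was 94.6% identical over 223 aligned bases, that of Ces2a and Ces2c 63.3% over 245. A match describes these letters only.

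Genes with related tasks were read beside the family as lists. Of 15 other esterases and drug hydrolases, Afmid, a formamidase (-0.997, SE 0.26, adjusted p = 0.0375), and Ephx2, the soluble epoxide hydrolase (262 ± 14.3 CPM with B-LGND2 against 420 ± 44.9 CPM with vehicle, -0.68, SE 0.19, adjusted p = 0.0496), fell with B-LGND2 on the high fat diet and 0 rose, with a list median of -0.28. For diet alone the smallest adjusted p of the 15 was 0.0605, for Ephx1 (-0.81). In B-LGND2 livers against normal diet Ephx1, the microsomal epoxide hydrolase (-1.03, adjusted p = 0.0250), and Aadac, an endoplasmic reticulum esterase related to the family in its tasks (335 ± 57.2 against 617 ± 110 CPM, -0.88, adjusted p = 0.0392), fell. Of 14 tested genes of neutral lipid hydrolysis Lpl, encoding lipoprotein lipase, rose with B-LGND2 (1.28, SE 0.32, adjusted p = 0.0334) and fell on the high fat diet (-2.39, SE 0.32, adjusted p = 0.0013). Lpl averaged 7.01 ± 0.357 CPM with B-LGND2, 2.88 ± 0.792 CPM on high fat diet with vehicle and 15.1 ± 3.95 CPM on normal diet, and the list medians were -0.07 for ligand and -8.2e-04 for diet. Pnpla2, the cytosolic triglyceride lipase of lipid droplets, stood at -0.07 with B-LGND2 (adjusted p = 0.884). Of the 14, 4 lay lower without overlap for the ligand and 1 higher, as did 17.2% and 16.4% of all genes tested. Those lower included Lipe (-0.78, adjusted p = 0.0749 by edgeR) and Abhd6 (-0.68, adjusted p = 0.0970), which did not pass. Of 15 genes listed under very low density lipoprotein assembly Apoc3 rose with B-LGND2 (1.18, SE 0.30, adjusted p = 0.0344). Mttp, the lipid transfer protein of particle assembly, stood at -0.35 with B-LGND2 (adjusted p = 0.312). Acat2 fell on the high fat diet (-1.04, SE 0.26, adjusted p = 0.0427). In mice this symbol names a cytosolic acetyl-CoA acetyltransferase and not an enzyme of particle assembly. Soat2, the sterol-esterifying enzyme on the list, stood at -0.02 for diet (adjusted p = 0.975).

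Among 13 transcription factors described for carboxylesterase genes, Ahr, the aryl hydrocarbon receptor, fell with B-LGND2 (34.4 ± 11.9 against 85.1 ± 26.7 CPM, -1.31, SE 0.29, adjusted p = 0.0193) and rose on the high fat diet (1.19, SE 0.29, adjusted p = 0.0366). Ppara rose on the high fat diet (1.28, SE 0.28, adjusted p = 0.0290) and was not called for the ligand. The drug-sensing receptors did not pass: Nr1i3, encoding CAR, had 120 ± 25.6 CPM with B-LGND2 against 240 ± 76.0 CPM with vehicle (-0.99, adjusted p = 0.0605), and Nr1i2, encoding PXR, 74.5 ± 7.48 against 118 ± 3.28 CPM (-0.67, adjusted p = 0.0658). The median of the 13 was -0.30 for B-LGND2 against vehicle and 0.46 for diet.

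The tissue matched its label, and among markers of other cells mainly those of macrophages moved with the ligand. Of 7 tested stellate markers and 2 tested cholangiocyte markers, 0 were called for the ligand on the high fat diet. The 7 hepatocyte markers matched, among them Alb and Apoa1, summed to 65933 to 101770 CPM with B-LGND2, 67789 to 72363 CPM on high fat diet with vehicle and 66984 to 76010 CPM on normal diet. The 11 macrophage markers summed to 1092 to 1356, 310 to 409 and 318 to 517 CPM in the same order, and 9 of the 11 rose with B-LGND2 on high fat diet, led by Cd5l (2.17, adjusted p = 1.9e-04), C1qa (2.19), C1qb (1.89) and C1qc (1.72). Apoa1 was the hepatocyte marker that rose (1.40, adjusted p = 0.0283). The other 6 were not called, and 3 of the 7 had a log2 fold change below 0, down to -0.70, with a list median of 0.02. Against normal diet 9 of the 11 macrophage markers rose as well, with the smallest p for Cd5l (1.89), Csf1r (1.92), C1qc (1.69) and C1qa (1.76). The 11 then ran from 0.93 to 3.98. The 7 endothelial markers summed to 183 to 216, 106 to 155 and 144 to 200.4 CPM; Kdr rose with B-LGND2 on high fat diet (0.91, adjusted p = 0.0417), and Lyve1 (1.37, adjusted p = 0.0153) and Stab2 (0.88, adjusted p = 0.0407) against normal diet. In bulk tissue fewer cells of a type and less RNA per cell cannot be told apart, and the part of these markers in the carboxylesterase values was not tested. Among markers of other tissues with carboxylesterases, 7 adipocyte markers summed to 7.99 to 12.4, 8.57 to 17.2 and 6.86 to 20.2 CPM in the same order. The 7 enterocyte markers summed to 327 to 929, 282 to 430 and 199 to 410 CPM, with Cdx2, a defining factor, as the 1 gene at 0 counts in all libraries. Most of these sums was Apoa4, also listed under very low density lipoprotein assembly, at 526 ± 296, 312 ± 67.6 and 212 ± 69.7 CPM. The 2 tested, Apoa4 (0.76, adjusted p = 0.205) and Fabp2 (0.48, adjusted p = 0.390), did not pass for the ligand. The 7 pancreatic acinar markers summed to 19.5 to 33.0, 25.1 to 36.4 and 26.8 to 56.3 CPM, with 4 of them (Cpa1, Prss2, Amy2a5 and Pnlip) at 0 counts in all libraries. Total counts were 5778978 to 10322972 per library. Signs of library quality also moved with the groups. For each library, GC content was correlated over all genes (Spearman) with how far the log2 CPM lay from its mean over libraries; the coefficient ran from 0.038 to 0.505 with B-LGND2, highest in replicate 1, -0.107 to -0.031 on high fat diet with vehicle and -0.246 to -0.148 on normal diet. The same correlation with transcript length was -0.227 to 0.101 with B-LGND2, 0.294 to 0.356 on high fat diet with vehicle and -0.527 to 0.191 on normal diet, so the high fat vehicle libraries lay above those of both other groups. With offsets for transcript length and GC content, Ces1d, Ces1f, Ces1g, Ces2c and Ces2e were called again for the ligand and Ces2a passed as well (adjusted p = 0.0162), Ces2a was called again for diet, and the call of Ces2c against normal diet was lost (adjusted p = 0.0619).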

How the data were processed

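Per the labels' protocols, liver RNA was enriched for poly(A), turned into barcoded libraries, amplified and read on an Ion Torrent Proton. The authors deposited raw read counts per Ensembl gene, whole numbers without normalization, for 9 libraries; the submitters' processing notes name HTSeq 0.6.1p1, DESeq2 1.6.3, SAMtools 0.1.19, TopHat2 2.0.13, Bowtie2 2.2.4 and build GRCm38.p3. The sources used here do not give annotation release, strand setting or the handling of ambiguous reads. Columns were matched to libraries by name, and symbols, coordinates and transcripts came from GENCODE M21 by gene ID (44671 of 45513 matched). No 2 libraries were alike within sampling noise (smallest chi-square per degree of freedom 11.8).

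Counts were analysed in R 4.3.3 with edgeR 4.0.16: filterByExpr with a minimum count of 10, scaling by the trimmed mean of M-values (TMM), 1 robust quasi-likelihood model over the 3 groups, 3 two-sided contrasts, Benjamini-Hochberg adjustment over all genes, threshold 0.05. SEs come from the F statistic and 95% intervals from the model's total degrees of freedom. CPM are on TMM-scaled library sizes. Counting error and amplification without molecular identifiers limit precision, most for Ces2c. Alternatives covered other scalings and filters, limma 3.58.1 (voom), DESeq2 1.42.0, the 2 groups alone, a replicate block, length and GC offsets, the rRNA share, and each library left out. The test was run on simulated counts drawn from the fitted spread. These held no shift in rRNA share, GC content or length between groups, so that run cannot speak to such shifts here. No permutation test was run, as 3 against 3 libraries allow no p under 0.1. Members and lists were chosen with earlier results of these data known. Named genes are all members, tested relatives, up to 4 called genes per list with the smallest p, the 3 genes closest to each member in profile, and called neighbours; other list genes with values were named after these were seen. A called gene of the transcription factor list is not reported here.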

Additional observations from a re-analysis of the deposited data

How the results depend on the processing

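Of the 30 fold changes of members, each tried in 22 alternatives, every called member kept its direction except Ces2c for B-LGND2 against vehicle with the rRNA share as a covariate (0.043). The number of members called for the ligand on high fat diet, 5, was 0 with that covariate and 1 to 7 with a library left out. For diet it was 1, and 2 without a low-count filter, 2 by DESeq2, 0 with the covariate and 0 to 2 with a library left out. For B-LGND2 on high fat diet against normal diet it was 4, and 7 without a filter, 7 by DESeq2, 0 with the covariate and 3 to 6 with a library left out. Over all genes the calls for ligand, diet and both were 681, 362 and 354, and 1345, 1182 and 751 without a filter, 1123, 984 and 660 by DESeq2, 1420, 153 and 144 with only the 2 groups compared, 2, 1 and 12 with the covariate, and 100 to 1439, 35 to 1860 and 111 to 639 with a library left out. Without scaling beyond library size the median of all genes shifted to -0.18 for ligand and 0.17 for diet, and calls split into 211 higher and 468 lower (371 and 310 with scaling) and 260 and 98 (182 and 180); Ces3a then stood at -0.0077 for ligand and Ces1c at 0.15 for diet. The other changes of sign were in fold changes that had not passed. For ligand, Ces1c stood at 0.0052 with the covariate, and Ces1e at 0.20, 0.086 and 0.015 without B-LGND2 replicate 2 or 3 or high fat vehicle replicate 3 (range with a library left out -0.43 to 0.20). For diet, the covariate gave 0.21 for Ces1b, 0.26 for Ces1f, 0.24 for Ces1g and -0.70 for Ces2c. Ces1c for diet stood at 0.0021 by limma-voom, 0.12 with length and GC offsets, 0.13 with these and the replicate block, and 0.0058, 0.12 and 0.0028 without high fat vehicle replicate 3 or normal diet replicate 1 or 3, and Ces2c at -0.18 and -0.17 without high fat vehicle or normal diet replicate 3 (range -0.18 to 0.28). Same-numbered libraries correlated at -0.19 to 0.12 in their deviations from the group means, so the numbers are not taken as pairs; with the replicate block 5, 1 and 3 members were called, and 203 genes for diet (150 with length and GC offsets as well, and 235 for both diet and ligand). The causes were not tested.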
